A study of Homo sapiens with 39 samples.

Results

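The comparison is of U937 cells cultured with the oligonucleotide Pu27 for 72 h against U937 cells cultured with Pu27 for 24 h. U937 is an established human line of the monocytic lineage that came from a histiocytic lymphoma. Pu27 is a guanine-rich oligonucleotide of 27 nt, 20 of them guanines, with the sequence of a MYC promoter element that can fold into a G-quadruplex. The members are the 6 arrays whose labels give Pu27 with 72 h (n = 3) or 24 h (n = 3), of 39 arrays in the series. Set beside them are 3 arrays of Pu27 at 48 h, 6 arrays of Pu9- (20 nt, 15 guanines) and 6 of Pu5- (42 nt, 31 guanines) at 72 h and 24 h, 6 arrays of untreated cells at the same times, and 3 of untreated cells at 0 h. Each oligonucleotide was given at 10 µM to exponentially growing cells, and an oligonucleotide of unrelated sequence was not analysed here. Within the Pu27 arm the hours in culture and the hours with the oligonucleotide are the same number and cannot be told apart, so the other arms over the same interval are given as the measured background. The labels speak of 3 repeat experiments without more detail, so the error behind each p-value is that among these cultures or preparations and may be partly technical.

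The MYC protein pairs with MAX, binds E-box sequences and drives genes for making ribosomes, nucleotides and cell cycle regulators, and the MXD and MXI1 proteins compete for MAX. In the monocyte lineage, NF-kB and MAP kinase signalling switch on chemokines, cytokines and their own feedback inhibitors. Cells short of amino acids raise ATF4 targets and cells short of sterols raise sterol synthesis enzymes, through separate regulators.

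Values are log2 expression after the authors' RMA normalisation, on Affymetrix 3' arrays. A difference of 1 is a doubling, and ± gives the standard error (SE) of limma's estimate. Array medians lay between 5.82 and 5.94, and background probe sets had array medians of 3.06 to 3.25. Of 10 myeloid markers, 9 were measured: lysozyme (LYZ) averaged 13.01 at 72 h and 13.06 at 24 h, CEBPA 11.03 and 11.23, and ITGB2 10.14 and 10.08, while SPI1 (5.24 and 5.48) and MPO (4.96 and 4.83) were dim. Summed on the linear scale and then taken to log2, the myeloid markers lay between 13.53 and 13.94 at 72 h, against 13.70 to 13.87 at 24 h. The 17 measured T cell, B cell, erythroid, epithelial and fibroblast markers had group means of 2.79 to 9.19, the brightest being the probe set of PAX5 at both times, and LCK alone of them passed the test, at 5.64 at 72 h and 5.03 at 24 h. CD3D, EPCAM, DCN and LUM averaged below 4 at both times. Other markers of T cells, epithelium and fibroblasts were brighter, such as CD3E (5.32 at 72 h), KRT18 (5.52) and COL1A1 (5.13). These were near the levels of the myeloid markers SPI1 and MPO. On longer lists of the same cell types the erythroid factor KLF1 fell by 0.85 (± 0.12) and the mucin MUC1 rose by 0.49 (± 0.10). The part of other cells in the results was not tested. The 3' minus 5' signal of ACTB, a measure of RNA integrity, averaged 2.24 (range 2.15 to 2.30) at 72 h, against 2.03 (1.94 to 2.18) at 24 h.

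Time separated the arrays more than treatment did. The first principal component, over all 18132 genes, held 57.9% of the variance, and the Pu27 arrays lay far apart on it at 72 h and at 24 h, with the 48 h arrays between. The arrays of the other arms lay beside the Pu27 arrays of the same time.

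**Figure D1:**
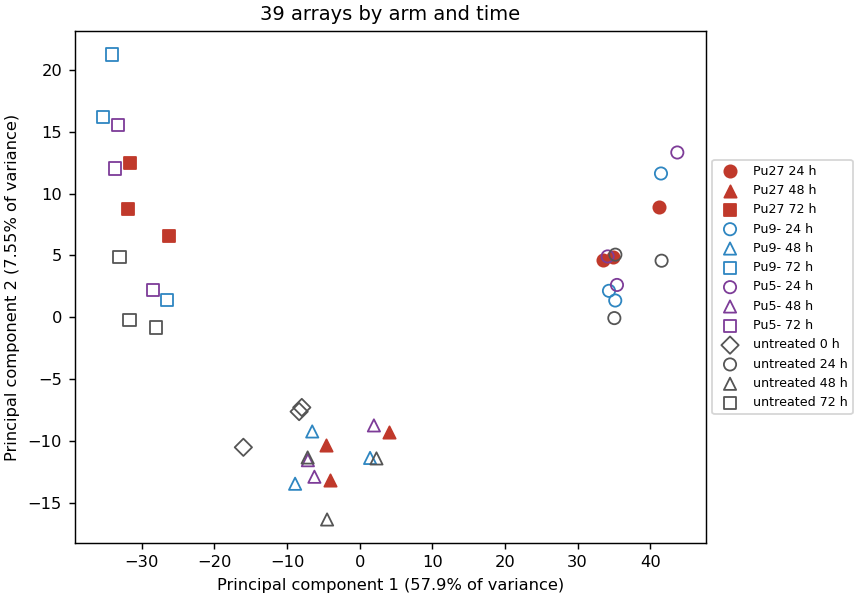
Each point is 1 of 39 arrays, placed by the first (57.9% of the variance) and second (7.55%) principal components of log2 expression. Colour gives the arm and shape gives the time; filled red symbols are Pu27. Along the first component, in every arm, 24 h arrays lie on the right, 72 h arrays on the left and 48 h arrays between. The untreated 0 h arrays, at -16.0 to -8.0, lie near the 48 h arrays and far from those of 24 h.

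Between 24 h and 72 h, 6609 of 18132 genes changed in Pu27-treated cells (36.4%, limma with Benjamini-Hochberg adjustment over all genes, threshold 0.05). Of these, 3563 rose (19.7% of the genes tested) and 3046 fell (16.8%). These shares are the background for the counts of list members given below for Pu27 at 72 h against 24 h. The change was at least 2-fold for 594 rises and 591 falls, and the median change of all genes was 0.06. The 72 h and 24 h arrays did not overlap for 7874 genes (43.4%). Centring every array on a common median gave 2790 rises and 3518 falls, and with the ACTB 3' minus 5' signal as a covariate 5994 genes were called. Since RNA from whole cultures was measured, fewer cells of a type and less RNA per cell cannot be told apart.

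The steepest falls by the rule used to name genes were in the secreted chemokines CCL2 and CXCL8. The chemokine CCL2, which draws monocytes, had 6.21, 6.38 and 6.10 in the Pu27 72 h arrays, against 12.82, 11.85 and 11.56 in the Pu27 24 h arrays. The groups were far apart, with the 72 h level 57.5-fold lower (log2 change -5.85 ± 0.47, adjusted p = 3.80e-12). CXCL8, the neutrophil chemokine interleukin-8, had 6.15, 6.20 and 5.79 at 72 h, against 11.99, 11.29 and 10.96 at 24 h. Again no array overlapped, and the level was 41.3-fold lower (-5.37 ± 0.37, adjusted p = 1.11e-13). The cytokine TNF had 5.02, 5.15 and 5.12 at 72 h, against 8.24, 7.81 and 7.43 at 24 h. Its level was 6.62-fold lower (-2.73 ± 0.18, adjusted p = 5.76e-14). The dendritic cell and activation marker CD83 fell by 1.97 (± 0.20). For CCL2, CXCL8 and TNF most of the drop had taken place by 48 h, at 83.0%, 90.1% and 89.3% of the log2 change. For CD83 the share was 49.7%.

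Of the 24 measured members of the list of NF-kB and inflammatory genes 9 fell, 3 rose and 12 did not pass. Over all genes 16.8% fell and 19.7% rose. The median change was -0.12, against 0.06 for all genes. Apart from CCL2, CXCL8, TNF and CD83, the falls were of 0.95 or less in size, from IER3 (-0.95) to NFKB1 (-0.31). CCL5, a T cell chemokine, rose by 0.68 (± 0.07). The 250 bases before the RefSeq start of CXCL8 are shown because it holds both of the sites searched for this list, a kappa B site (GGANTTTCC) and an AP-1 site (TGANTCA), in capitals, starting 91 and 137 bases before the start of the gene. The strand is the forward one, on GRCh38.p14, chr4:73740319-73740568.
CXCL8: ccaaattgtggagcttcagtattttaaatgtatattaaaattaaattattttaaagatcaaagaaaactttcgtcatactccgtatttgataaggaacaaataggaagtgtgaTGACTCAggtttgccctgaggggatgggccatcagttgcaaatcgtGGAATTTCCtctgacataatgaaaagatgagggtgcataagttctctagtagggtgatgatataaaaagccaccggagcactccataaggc
The kappa B letters were in the RefSeq windows (250 bases before to 50 after the start) of 9 of the 20 list members with a window (45.0%), on either strand, against 1.64% of 27305 windows. The AP-1 letters were in 4 of the 20, against 7.76% of all windows. A match is letters in a window and not a measured binding site. Members were chosen as NF-kB and inflammatory genes, so the kappa B share can follow from that choice. The changes of the 9 members with kappa B letters ran from -5.37 for CXCL8 to 0.38 for IL6. A link of these letters with the falls was not tested.

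Surface and enzyme genes of monocytes and macrophages fell as well. S100A9, a subunit of calprotectin, had 5.21, 4.65 and 4.28 in the Pu27 72 h arrays, against 9.24, 9.02 and 8.42 in the Pu27 24 h arrays. The 2 sets of arrays were separate by several log2 units (-4.18 ± 0.34, adjusted p = 6.05e-12). Its partner S100A8 fell by 2.23 (± 0.34). S100A9 had 8.58, 7.78 and 7.41 at 48 h, when 23.2% of its log2 change had occurred, so most of the change on this scale came later. The fatty acid receptor GPR84 had 4.28, 3.89 and 4.15 at 72 h, against 8.44, 7.88 and 8.03 at 24 h (-4.01 ± 0.20, adjusted p = 5.84e-17). At 72 h GPR84 was close to the background probe sets, whose array medians were given above. The scavenger receptor CD36 fell by 3.08 (± 0.28), the NADPH oxidase subunit CYBB by 3.04 (± 0.20) and the collagenase MMP1 by 3.01 (± 0.67). MMP1 spread widely, with 5.40, 4.57 and 3.56 at 72 h, against 8.36, 7.48 and 6.73 at 24 h, yet its groups did not overlap. ANKRD22 and the transporter SLC22A4 were also among the 15 largest falls (-2.91 and -2.77). Over all genes 16.8% fell and 19.7% rose. Of 30 measured monocyte and macrophage markers 14 fell, 3 rose and 13 did not pass, with a median change of -0.30. CD68 and TYROBP were among the 3 that rose, by 0.39 and 0.37.

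Several targets and feedback inhibitors of MAP kinase signalling fell too. ETV5, an ETS family factor induced through ERK, had 6.64, 6.64 and 6.40 at 72 h, against 9.58, 9.46 and 9.44 at 24 h. The ERK phosphatase DUSP6 had 8.01, 8.04 and 7.83 at 72 h, against 10.63, 10.68 and 10.69 at 24 h. Neither gene's groups overlapped, and the changes were -2.94 ± 0.19 and -2.71 ± 0.25 (adjusted p = 3.20e-14 and 7.99e-11). DUSP5 fell by 1.62 (± 0.16) and the receptor signalling inhibitor SPRY2 by 1.61 (± 0.22). Of 30 measured members of the immediate early and MAP kinase feedback list, 14 fell and 2 rose, with a median of -0.24. The shares over all genes were 16.8% and 19.7%. SPRY4, another feedback inhibitor, went the other way by its brightest probe set (1.48), while its other probe sets gave -0.57 and -0.27.

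**Figure D2:**
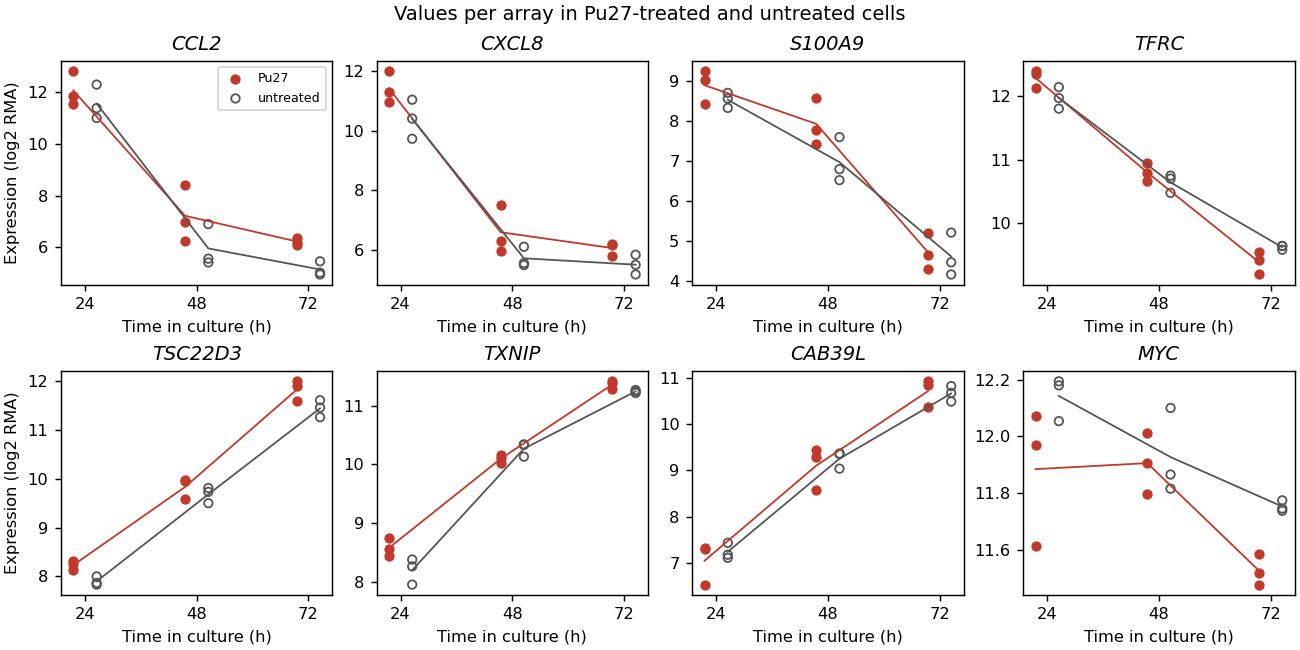
Log2 expression of 8 genes by hours in culture; each point is 1 array (3 per group), filled red for Pu27 and open grey for untreated cells, with lines through the group means, drawn slightly apart. CCL2 and CXCL8 make most of their drop by 48 h and S100A9 makes most of its drop after it, TSC22D3, TXNIP and CAB39L climb at each step, and the MYC panel spans less than 1 log2 unit.

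MYC itself, from whose promoter the Pu27 sequence comes, changed little. Its probe set had 11.58, 11.52 and 11.48 in the Pu27 72 h arrays, against 11.61, 11.97 and 12.07 in the Pu27 24 h arrays. The groups did not overlap, but the gap between the nearest arrays was small. The change was -0.36 ± 0.11 (adjusted p = 0.00626), and it no longer passed without the Pu27 24 h array of replicate 3 (-0.27, adjusted p = 0.0722), nor without all arrays of replicate 2 (-0.31, adjusted p = 0.152) or of replicate 3 (-0.24, adjusted p = 0.214). At 48 h the mean was 11.91. Over the same interval MYC changed by -0.39 in untreated cells, -0.30 with Pu9- and -0.26 with Pu5-. The difference between the Pu27 and the untreated change was 0.03 (adjusted p = 0.968). Among its partners and competitors for MAX, MXI1 rose by 1.27 (± 0.10), MXD1 by 1.13 (± 0.17) and MXD4 by 0.91 (± 0.13), while MYCL fell by 0.80 (± 0.14). The calls of MXD1 and MYCL rest on the brighter probe set alone, and the mean over probe sets was 0.70 for MXD1, 0.31 for MXD4 and -0.24 for MYCL. Of 13 measured members of this network 5 rose and 2 fell, with a median of 0.24, against 19.7% and 16.8% of all genes.

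The list of ribosome biogenesis genes and MYC targets had the highest share of falling members among the lists examined. Of 31 measured, 29 fell and none rose, with a median change of -1.02, against 16.8% of all genes that fell. UTP20, a component of the small subunit processome, had 6.25, 5.83 and 5.83 at 72 h, against 8.02, 8.26 and 8.06 at 24 h. The arrays were separate by more than 1 log2 unit (-2.15 ± 0.13, adjusted p = 1.05e-14). MRTO4, a large subunit assembly factor, had 8.50, 8.28 and 8.33 at 72 h, against 10.52, 10.53 and 10.38 at 24 h (-2.10 ± 0.14, adjusted p = 2.79e-14). RRS1, which also assembles the large subunit, fell by 1.77 (± 0.12), and NOP16, another such factor, fell by 1.67 (± 0.14). These falls ran through both steps of the interval: the median of the list was -0.43 at 48 h against 24 h and -0.63 at 72 h against 48 h.

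The region before UTP20 is shown because it holds the E-box (CACGTG) that MYC binds, in capitals, starting 10 bases before the start of the gene. It lies on the forward strand of GRCh38.p14, chr12:101279855-101280104.
UTP20: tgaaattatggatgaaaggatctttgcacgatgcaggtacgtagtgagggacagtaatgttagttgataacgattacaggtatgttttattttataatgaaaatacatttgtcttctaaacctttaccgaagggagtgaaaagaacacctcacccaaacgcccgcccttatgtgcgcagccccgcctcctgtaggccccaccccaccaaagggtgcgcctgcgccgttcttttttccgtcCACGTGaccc
The E-box was in the windows of 8 of 25 members of the list (32.0%), among them MRTO4, FBL and NOP2, against 7.43% of all windows. It was in 1 of 11 windows of the 15 largest falls (9.1%). Members of the list were chosen as ribosome biogenesis genes and MYC targets, so its E-box share can follow from that choice.

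The ribosomal proteins themselves did not follow. Of 20 measured, 5 rose and none fell, against 19.7% and 16.8% of all genes. Their median change was 0.10, and RPL3 rose by 0.57 (± 0.08). With arrays centred on a common median 1 of the 20 rose. RPL35A, which was not on that list, was among the 15 largest falls by its brightest probe set (-2.81 ± 0.13), and the other probe sets of RPL35A gave -0.47 and -0.32. Translation factors were mixed, with 7 of 16 falling and 2 rising. The 2 that rose were the elongation factors EEF1G (0.39 ± 0.07) and EEF2 (0.34 ± 0.06). EIF4G1, the scaffold of the cap-binding complex, fell by 1.77 (± 0.14), and EIF2S1, a subunit of the factor that carries the initiator tRNA, by 1.25 (± 0.10). DHX9, a helicase that unwinds G-quadruplexes and other structures, had 8.66, 8.74 and 8.57 at 72 h, against 10.76, 10.84 and 10.74 at 24 h. Its arrays agreed closely within each group, with no overlap (-2.12 ± 0.07, adjusted p = 2.12e-21). Of 14 measured G-quadruplex helicases and binding proteins, 7 fell and 3 rose.

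Genes of the G1 to S transition and of DNA replication fell, while those of mitosis were divided. The cyclin CCNE2 had 9.09, 8.59 and 8.38 at 72 h, against 11.19, 10.68 and 10.67 at 24 h. Its arrays did not overlap, with a 4.47-fold lower level (-2.16 ± 0.24, adjusted p = 2.93e-09). CCNE1, the other cyclin E, had 7.46, 7.67 and 7.75 at 72 h, against 9.75, 9.50 and 9.16 at 24 h (-1.84 ± 0.14). Of 18 measured G1/S genes 13 fell and 2 rose, with a median of -0.53. Of 32 genes of origin licensing and the replication fork 21 fell and 5 rose, with a median of -0.48. They included TIPIN, which steadies the fork (-1.85 ± 0.18), GINS4 of the replicative helicase (-1.59 ± 0.14, or -0.99 over all its probe sets) and POLA1, the catalytic subunit of the priming polymerase. POLA1 had 8.75, 8.95 and 9.23 at 72 h, against 10.44, 10.28 and 10.33 at 24 h (-1.37 ± 0.11, adjusted p = 4.46e-12).

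The region before POLA1 is shown because it holds an E2F site (TTTGGCGC), on the reverse strand and in capitals, starting 137 bases before the start of the gene. It lies on the forward strand of GRCh38.p14, chrX:24693668-24693917.
POLA1: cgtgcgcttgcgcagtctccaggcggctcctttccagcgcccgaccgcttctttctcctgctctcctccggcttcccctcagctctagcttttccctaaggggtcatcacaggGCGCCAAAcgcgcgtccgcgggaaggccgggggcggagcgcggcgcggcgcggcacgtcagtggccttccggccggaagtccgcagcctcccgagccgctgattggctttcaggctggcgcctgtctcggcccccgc
These letters were in 6 of 27 windows of the replication list (22.2%), against 0.66% of all windows. Members were chosen as replication genes, so this share can follow from that choice. A link of the E2F letters with the falls was not tested.

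More genes of nucleotide synthesis fell than rose. CTPS1, which makes CTP, had 8.60, 8.56 and 8.67 at 72 h, against 10.61, 10.53 and 10.34 at 24 h (-1.89 ± 0.12). UMPS, which makes UMP, had 9.08, 8.96 and 8.999 at 72 h, against 10.82, 10.96 and 10.86 at 24 h (-1.86 ± 0.10). Both pyrimidine enzymes were lower in every 72 h array. Of 23 measured members of the nucleotide and folate list 11 fell, 3 rose and 9 did not pass, with a median of -0.18. Among all genes 16.8% fell and 19.7% rose. With the ACTB 3' minus 5' signal as a covariate 8 of the 23 fell and 3 rose. UHRF1, which guides maintenance methylation of DNA in S phase, fell by 1.52 (± 0.08). Of 9 measured CDK inhibitors and pocket proteins 6 rose and none fell, with a median of 0.41, among them the p130 gene RBL2 (0.94 ± 0.14) and CDKN2D (0.76 ± 0.15). With a common array median 5 rose and 1 fell. Of 39 G2/M and mitotic genes 14 rose and 10 fell, with a median of -0.02. The mitotic cyclin CCNB1 fell by 0.91 (± 0.09), and the kinase TTK rose by 0.71 (± 0.11). With a common array median 9 mitotic genes rose and 14 fell. The mitotic genes turned between the steps. From 24 h to 48 h 1 rose and 13 fell, against 12.2% and 9.7% of all genes, and from 48 h to 72 h 15 rose and 2 fell, against 8.07% and 10.5% of all genes.

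Heat shock proteins fell nearly as a whole list, with 14 of 16 lower, 1 higher and a median of -1.07. HSPA8, the constitutive HSP70, had 11.56, 11.74 and 11.70 at 72 h, against 14.04, 13.96 and 13.92 at 24 h. Its level was 4.95-fold lower with no overlap (-2.31 ± 0.10, adjusted p = 1.42e-18), and all 8 other probe sets of HSPA8 fell too. The nucleotide exchange factor HSPH1 fell by 1.99 (± 0.11), the HSP40 cochaperone DNAJA1 by 1.86 (± 0.08) and HSP90AA1 by 1.69 (± 0.08). Over 60% of each of these changes had occurred by 48 h, from 60.7% for HSPA8 to 69.3% for HSPH1. The region before HSPA8 is shown because it holds 2 copies of the heat shock element core (GAANNTTC), in capitals, starting 230 and 50 bases before the start. The gene lies on the reverse strand of GRCh38.p14, chr11:123062137-123062386, and the sequence runs in the direction of the gene.
HSPA8: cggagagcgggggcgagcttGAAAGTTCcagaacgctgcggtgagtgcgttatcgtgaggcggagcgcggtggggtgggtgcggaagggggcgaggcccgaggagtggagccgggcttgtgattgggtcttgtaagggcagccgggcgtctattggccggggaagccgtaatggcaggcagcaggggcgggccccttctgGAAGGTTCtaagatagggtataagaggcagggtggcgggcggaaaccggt
The core was in 5 of 16 windows of the list (31.2%), DNAJA1 among them, against 6.87% of all windows. Members were chosen as heat shock proteins, so this share can follow from that choice. A link of the core with the falls was not tested.

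More genes of glycolysis and of the antioxidant list fell than rose by 72 h, and iron genes were mixed. The transferrin receptor TFRC had 9.18, 9.55 and 9.41 at 72 h, against 12.35, 12.39 and 12.12 at 24 h. It was 7.51-fold lower with no overlap (-2.91 ± 0.21, adjusted p = 2.57e-13). Of 10 measured iron handling genes 4 fell and 2 rose, with a median of -0.04, and the 2 that rose were the iron transporters SLC11A2 (0.66 ± 0.09) and SLC25A37 (1.42 ± 0.17). Lactate dehydrogenase A (LDHA) fell by 1.12 (± 0.09), the glucose transporter SLC2A1 by 1.12 (± 0.09) and pyruvate kinase PKM by 1.69 (± 0.23), while the aldolase ALDOC rose by 1.41 (± 0.18). Of 20 measured glycolysis genes 11 fell and 2 rose, with a median of -0.35, against 16.8% and 19.7% of all genes. Of 17 NRF2 targets and glutathione genes 9 fell and 2 rose, with a median of -0.26. GCLM, the modifier subunit of the glutathione-making ligase, fell by 1.32 (± 0.09) and the quinone reductase NQO1 by 1.13 (± 0.09).

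**Figure D3:**
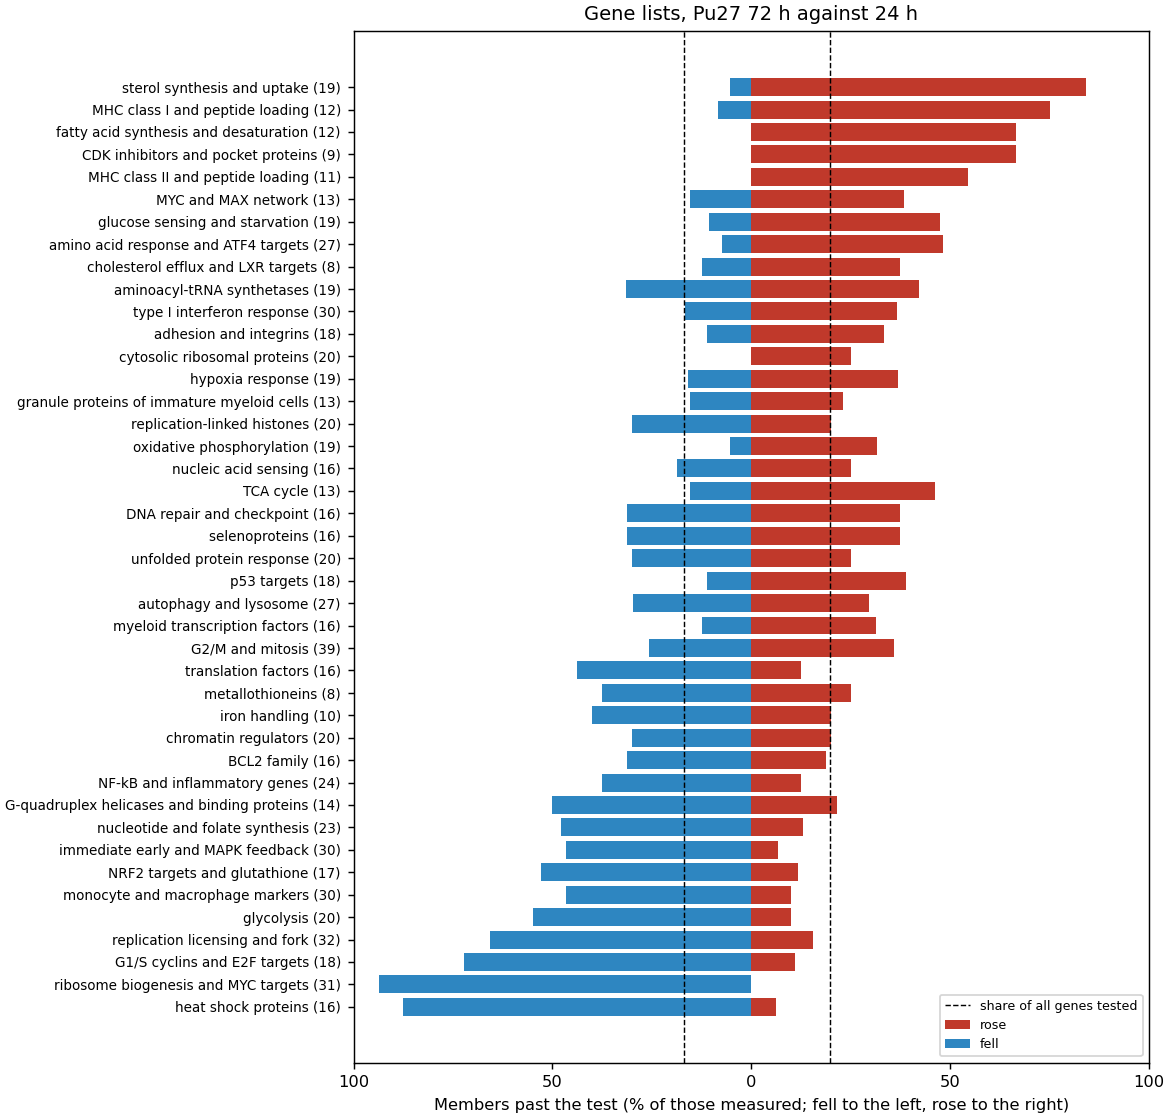
Gene lists, with the number of measured members in brackets, ordered by the median log2 change between Pu27 24 h and Pu27 72 h. Bars give the percentage of members that rose (red, right) or fell (blue, left), and the dashed lines the shares over all genes tested, 19.7% and 16.8%. Sterol synthesis, at the top, has 16 of 19 members higher, and ribosome biogenesis and heat shock proteins, at the bottom, have 29 of 31 and 14 of 16 lower.

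The largest rises included regulators of growth signalling and fuel use. CAB39L, a scaffold of the LKB1 kinase, had 10.37, 10.92 and 10.84 in the Pu27 72 h arrays, against 6.53, 7.29 and 7.32 in the Pu27 24 h arrays. It had the largest rise by the rule used to name genes, 12.7-fold with no overlap (3.66 ± 0.19, adjusted p = 1.99e-16). TSC22D3, the glucocorticoid-induced leucine zipper, had 11.59, 11.90 and 12.001 at 72 h, against 8.25, 8.32 and 8.13 at 24 h (3.60 ± 0.17, adjusted p = 1.78e-17). RDM1, an RNA recognition motif protein related to RAD52, had 9.45, 9.28 and 9.45 at 72 h, against 5.40, 6.13 and 5.82 at 24 h (3.61 ± 0.18). In all 3 genes the arrays of the groups lay more than 3 log2 units apart. KLHL24, a substrate adaptor of a ubiquitin ligase, rose by 3.39 (± 0.19) and CLEC2D, a ligand of a natural killer cell receptor, by 3.27 (± 0.20).

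PIK3IP1, an inhibitor of PI 3-kinase, had 8.74, 9.10 and 9.17 at 72 h, against 6.08, 6.22 and 5.92 at 24 h (2.93 ± 0.17, adjusted p = 2.60e-15). The 7 other probe sets of PIK3IP1 gave 0.33 to 1.34, and the mean of all gave 1.10. TXNIP, which restrains glucose uptake, had 11.42, 11.39 and 11.29 at 72 h, against 8.43, 8.75 and 8.55 at 24 h. It was 6.90-fold higher in arrays that agreed closely within each group (2.79 ± 0.12, adjusted p = 1.49e-18). PPARGC1A, a coactivator for mitochondrial genes, rose by 2.43 (± 0.14), or by 1.46 over all its probe sets. Of 19 measured genes of glucose sensing and starvation 9 rose and 2 fell, with a median of 0.22, against 19.7% and 16.8% of all genes. SMIM14 (3.09), NIPSNAP3B (2.92), TESMIN (2.78), the methyltransferase TMT1A (2.68), the PDZ scaffold GRIP1 (2.65) and PTGES3L (2.59) make up the rest of the 15 largest rises, beside ACSS2 and HLA-DRA. Of the 30 largest rises and falls, 7 moved by over 1.5 times when a gene's probe sets were averaged: RDM1 (1.40), HLA-DRA (1.62), TESMIN (1.13), PIK3IP1 (1.10), CYBB (-1.56), PRDM8 (-1.56) and RPL35A (-1.20), all with the direction kept. The region before TXNIP is shown because it holds a forkhead site (TGTTTAC), on the other strand and in capitals, starting 124 bases before the start. The gene lies on the reverse strand of GRCh38.p14, chr1:145996580-145996829, and the sequence runs in the direction of the gene.
TXNIP: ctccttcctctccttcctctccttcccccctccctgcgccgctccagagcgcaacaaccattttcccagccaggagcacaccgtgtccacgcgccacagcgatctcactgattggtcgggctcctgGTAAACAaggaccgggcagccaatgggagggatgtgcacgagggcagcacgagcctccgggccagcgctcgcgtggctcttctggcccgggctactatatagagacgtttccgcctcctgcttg
TXNIP was the only 1 of 10 windows among the 15 largest rises with these letters (10.0%), against 3.41% of all windows.

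Sterol and fatty acid synthesis rose as groups. Of 19 measured sterol genes 16 rose and 1 fell, with a median of 0.84, against 19.7% of all genes that rose. MSMO1, a methylsterol oxidase, had 11.33, 11.90 and 11.88 at 72 h, against 9.15, 9.61 and 9.47 at 24 h. It was 4.91-fold higher with no overlap (2.30 ± 0.23, adjusted p = 5.13e-10). HMGCS1, which makes HMG-CoA, had 10.77, 11.28 and 11.01 at 72 h, against 8.60, 8.94 and 8.89 at 24 h (2.21 ± 0.26, adjusted p = 9.59e-09). The cholesterol transport protein STARD4 rose by 2.01 (± 0.23) and the isomerase IDI1 by 1.41 (± 0.20). Of 12 genes of fatty acid synthesis and desaturation 8 rose and none fell, with a median of 0.56. ACSS2, which makes acetyl-CoA from acetate, had 9.42, 10.03 and 10.37 at 72 h, against 7.22, 7.09 and 7.14 at 24 h (2.79 ± 0.24). The desaturase SCD rose by 1.27 (± 0.11) to a mean of 13.47 at 72 h, against 12.19 at 24 h.

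The region before MSMO1 is shown because it holds 4 copies of the CCAAT box, in capitals on either strand, starting 185, 139, 76 and 34 bases before the start. It lies on the forward strand of GRCh38.p14, chr4:165327419-165327668.
MSMO1: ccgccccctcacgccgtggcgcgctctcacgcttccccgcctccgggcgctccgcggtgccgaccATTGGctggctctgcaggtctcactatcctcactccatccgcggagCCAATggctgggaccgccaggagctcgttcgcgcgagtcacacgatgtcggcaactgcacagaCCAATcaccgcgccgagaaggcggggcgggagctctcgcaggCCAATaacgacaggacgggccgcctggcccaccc
The CCAAT box was in 15 of 17 windows of the sterol list (88.2%), against 35.7% of all windows and 4 of 16 heat shock windows (25.0%). A sterol regulatory element (TCACNCCAC) was in 1 of the 17 (5.9%), against 1.15% of all windows, and no match says only that these letters are not in the window. Members were chosen as sterol genes, so the CCAAT share can follow from that choice.

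Amino acid response genes rose, and secretory stress genes split. DDIT3, the stress factor CHOP, had 8.26, 8.45 and 8.25 at 72 h, against 6.28, 6.33 and 6.24 at 24 h. It was 4.11-fold higher (2.04 ± 0.16, adjusted p = 3.38e-12), and 28.7% of the change had occurred by 48 h. Of 27 measured ATF4 targets and amino acid response genes 13 rose and 2 fell, with a median of 0.20. Asparagine synthetase (ASNS) rose by 1.15 (± 0.12), while the amino acid transporter SLC7A5 fell by 1.51 (± 0.19), a call that rests on its brightest probe set. Among the aminoacyl-tRNA synthetases 8 of 19 rose and 6 fell, with AARS1 1.41 (± 0.15) higher and FARSA 1.05 (± 0.12) lower. Of 20 unfolded protein response genes 5 rose and 6 fell. The endoplasmic reticulum chaperone cofactor DNAJB9 rose by 1.11 (± 0.19) and HERPUD1, a component of the degradation machinery there, by 1.04 (± 0.09). These 2 genes moved late, with none of the rise of DNAJB9 and 7.1% of that of HERPUD1 present at 48 h. In the whole list 9 members fell and none rose from 24 h to 48 h, against 9.7% and 12.2% of all genes. From 48 h to 72 h 11 members rose and none fell, against 8.07% and 10.5% of all genes. BBC3, the p53-inducible death protein PUMA, had 8.77, 9.33 and 9.42 at 72 h, against 7.02, 7.05 and 6.96 at 24 h (2.16 ± 0.17, adjusted p = 1.22e-12). Its other probe set gave 0.64. Of 18 p53 targets 7 rose and 2 fell, and of 16 BCL2 family genes, BBC3 again included, 3 rose and 5 fell. From 24 h to 72 h 19.7% of all genes rose and 16.8% fell, the background for the counts of these lists over that interval.

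Antigen presentation genes rose. Of 12 measured genes of the MHC class I pathway 9 rose and 1 fell, with a median of 0.76. The peptide-trimming enzyme ERAP1 rose by 1.72 (± 0.15), or by 0.84 over all its probe sets, HLA-E by 1.34 (± 0.13) and HLA-C by 1.05 (± 0.15). HLA genes resemble each other, and probe sets for HLA-C, HLA-E and HLA-F may share signal. Of 11 genes of the MHC class II pathway 6 rose and none fell, with a median of 0.40. HLA-DRA, the class II alpha chain, had 8.64, 8.41 and 8.45 at 72 h, against 5.68, 5.94 and 6.09 at 24 h. It was 6.06-fold higher with no overlap (2.60 ± 0.13, adjusted p = 2.22e-17), and its second brightest probe set gave 2.21 while the dimmest gave 0.06. The invariant chain CD74 rose by 1.18 (± 0.13), HLA-DRB1 by 1.01 (± 0.11) and HLA-DMA, which loads peptide, by 0.93 (± 0.18).

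By 48 h the change was about midway. Against 24 h, 3971 genes differed at 48 h (21.9%, 2212 higher and 1759 lower), and against 48 h, 3361 differed at 72 h (18.5%, 1463 higher and 1898 lower). With arrays centred on a common median the share of calls that were higher at 48 h than at 24 h was 41.6%, against 55.7% as normalised by the authors. Over the 6609 called genes the median share of the log2 change present at 48 h was 53.05%, and 84.4% of them had a 48 h mean between the 24 h and 72 h means. The median share was 57.7% for rises and 48.2% for falls. Without the arrays of replicate 2 the counts were 2253 and 1664, and without those of replicate 3 they were 2494 and 1676. Of the 15 largest rises 13 had an untreated 0 h level nearer to the Pu27 72 h mean than to the Pu27 24 h mean, as had 13 of the 15 largest falls and 4387 of all 6609 called genes. CCL2, for example, averaged 6.31 in untreated cells at 0 h and CXCL8 5.81.

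Most of the genes called with Pu27 were called in the same direction in each other arm, none of which shares arrays with the Pu27 arm. Pu9- had 6429 changed genes (35.5%), Pu5- 6540 (36.1%) and untreated cells 6432 (35.5%). Of the 6609 genes called with Pu27, 5224 were called in the same direction with Pu9- (79% of the Pu27 calls and 81.3% of the Pu9- calls), 5477 with Pu5- (82.9% and 83.7%) and 5146 in untreated cells (77.9% and 80%). Those called in opposite directions numbered 7, 4 and 4. Across the 18132 genes, which are not independent of each other, the Pearson correlation of the Pu27 change was 0.92 with that of Pu9-, 0.94 with that of Pu5- and 0.91 with that of untreated cells. All 30 of the largest rises and falls were also called in each of the other 3 arms. CCL2 changed by -5.85 with Pu27, -6.10 with Pu9-, -6.20 with Pu5- and -6.43 in untreated cells. TXNIP changed by 2.79 with Pu27, 2.65 with Pu9-, 2.85 with Pu5- and 3.05 in untreated cells. The ribosome biogenesis list had medians of -1.02 with Pu27, -0.92 with Pu9-, -0.94 with Pu5- and -1.05 in untreated cells, and the sterol list 0.84 with Pu27, 0.67 with Pu9-, 0.87 with Pu5- and 0.53 in untreated cells. The G2/M list differed more between arms: 14 rose and 10 fell with Pu27, 9 rose and 8 fell with Pu9-, 2 rose and 23 fell with Pu5-, and 6 rose and 10 fell in untreated cells. Its medians were -0.02 with Pu27, -0.09 with Pu9-, -0.35 with Pu5- and -0.09 in untreated cells.

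**Figure D4:**
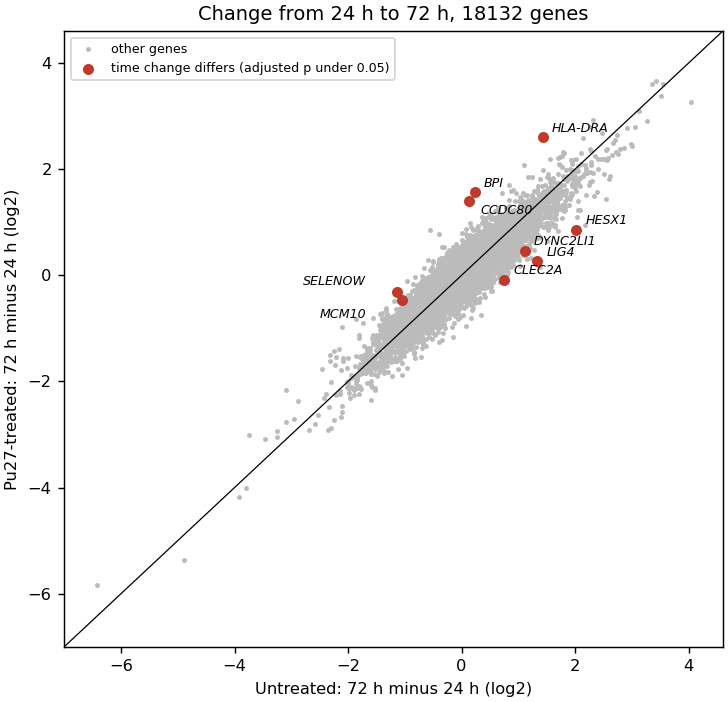
Each point is 1 of 18132 genes, with its log2 change from 24 h to 72 h in Pu27-treated cells on the vertical axis and in untreated cells on the horizontal axis; the line marks equal change. The 9 genes in red had a difference between these changes that passed the test with no replicate block, and the cloud of the other genes follows the line.

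How many genes had a time change with Pu27 that differed from that of another arm turned on how the replicate numbers were treated. With no block, the test of the difference called 9 genes against untreated cells (0.0496% of all genes), 5 with the higher change with Pu27 (0.0276%) and 4 with the lower (0.0221%), and 1874 genes had an unadjusted p under 0.05. The count was 33 without the Pu27 24 h array of replicate 1, 28 without the Pu27 72 h array of replicate 3, 17 without the untreated 72 h array of replicate 1 and 43 without the untreated 24 h array of replicate 2. Without all arrays of replicate 1, 2 or 3 it was 70, 0 or 1.

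The labels do not say what a replicate number marks, but same-numbered arrays of Pu27 and of untreated cells deviated from their group means together, with correlations over genes of 0.11 to 0.27 at 72 h and 0.13 to 0.44 at 24 h. The range was 0.15 to 0.27 at 72 h and -0.06 to 0.11 at 24 h for Pu27 with Pu9-, and -0.01 to 0.25 at 72 h and 0.06 to 0.19 at 24 h for Pu27 with Pu5-. With the replicate number as a block the test called 88 genes against untreated cells (0.485%), 34 against Pu9- (0.188%) and 21 against Pu5- (0.116%). With a block within each time, chosen after the data were seen, it called 422 (2.33%), 125 (0.689%) and 65 (0.358%). All 9 genes called against untreated cells with no block, and all 3 against Pu9-, were also called with either block. The ACTB 3' minus 5' signal also differed between the arms: at 72 h it averaged 2.24 with Pu27, 2.10 with Pu9-, 2.04 with Pu5- and 2.05 in untreated cells, and at 24 h it averaged 2.03 with Pu27, 1.90 with Pu9-, 1.90 with Pu5- and 1.97 in untreated cells. With this signal as a covariate 13 genes were called against untreated cells and 6 against Pu9-.

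HLA-DRA had the larger rise with Pu27 against every arm. Its 72 h arrays with Pu27, at 8.41 to 8.64, were above all 72 h arrays of Pu9- (7.54 to 7.67), Pu5- (7.48 to 7.74) and untreated cells (7.22 to 7.37). At 24 h the arms overlapped. The rise was 2.60 with Pu27, 1.57 with Pu9-, 1.65 with Pu5- and 1.44 in untreated cells. The difference passed against untreated cells (1.16, 95% interval 0.80 to 1.53, adjusted p = 0.00173) and against Pu9- (1.03, 0.67 to 1.40, adjusted p = 0.0169), and did not pass against Pu5- (0.95, 0.58 to 1.31, adjusted p = 0.0941) unless the replicate number was a block (0.00963). With the ACTB signal as a covariate the differences were 1.09 from untreated cells and 1.03 from Pu9-. HLA-DRB1 rose by 1.01 with Pu27 and by 0.37 in untreated cells, a difference of 0.64 that did not pass (adjusted p = 0.0766) unless the replicate number was a block (0.0228). All 11 class II genes had a higher change with Pu27 than in untreated cells, with a median difference of 0.21, against 0.04 over all genes, and HLA-DRA alone of them passed with no block. With the block within each time HLA-DRB1 (adjusted p = 0.0101) and HLA-DMA (0.0287) passed as well.

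BPI, a bactericidal granule protein, had 6.20, 6.43 and 6.13 in Pu27 72 h arrays and 4.51, 4.58 and 4.97 in Pu27 24 h arrays, a rise of 1.57, against 0.23 in untreated cells. The difference was 1.34 (95% interval 0.89 to 1.78, adjusted p = 0.00213). CCDC80, a secreted matrix protein, had 6.85, 7.17 and 7.11 at 72 h and 5.62, 5.901 and 5.40 at 24 h with Pu27, a rise of 1.40, against 0.14 in untreated cells. Its difference was 1.26 (0.81 to 1.72, adjusted p = 0.00640), a call that was lost without the Pu27 24 h array of replicate 3 (adjusted p = 0.0539). For both genes Pu9- and Pu5- lay between, with rises of 0.44 and 0.56 for Pu9- and of 0.90 and 0.76 for Pu5-. With no block neither gene's difference passed against Pu9- (adjusted p = 0.0539 and 0.202) or against Pu5- (adjusted p = 0.711 and 0.837). The rise of CCDC80 with Pu27 was 0.73 over the mean of its probe sets, and its other probe sets gave 0.002 to 1.08.

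MCM10, a replication initiation factor, fell by less with Pu27 (-0.47) than in untreated cells (-1.04), a difference of 0.58 (0.36 to 0.79, adjusted p = 0.0101). Its call was lost without the Pu27 24 h array of replicate 3 (adjusted p = 0.0557) and without the untreated 72 h array of replicate 2 (0.0589) or 3 (0.0531). Of 32 replication genes 27 had a higher change with Pu27 than in untreated cells and 5 a lower one, with a median difference of 0.30, against 0.04 over all genes, and MCM10 alone of them passed with no block. With the block within each time 10 passed, 9 of them with the higher change with Pu27, among them the licensing factor CDC6 (difference 0.75, adjusted p = 0.0553 with no block and 0.000607 with it). Against Pu9- the list had a median difference of 0.19, and 1 gene passed with that block. Against Pu5- the median difference was 0.04, and 0 passed. MCM10 itself changed by -0.66 with Pu9- and by -0.48 with Pu5-. The small selenoprotein SELENOW had 6.03, 6.13 and 6.29 at 72 h and 6.61, 6.46 and 6.34 at 24 h with Pu27, against 6.51, 6.56 and 6.62 at 72 h and 7.57, 7.73 and 7.79 at 24 h in untreated cells. What stood apart was the untreated 24 h group, and the change was -0.32 with Pu27 and -1.13 in untreated cells (difference 0.81, 0.55 to 1.08, adjusted p = 0.00173). With Pu9- and Pu5- SELENOW changed by -0.09 and -0.19. Its fall with Pu27 passed (adjusted p = 0.00509), but not without the Pu27 24 h array of replicate 1 (-0.25, adjusted p = 0.0537). With only the compared groups in the fit the differences of SELENOW and MCM10 did not pass (adjusted p = 0.0551 and 0.147).

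The 4 genes with the lower change with Pu27 rose in untreated cells. LIG4, the ligase of DNA end joining, changed by 0.27 with Pu27, which did not pass (adjusted p = 0.0937, and 0.0333 without the Pu27 24 h array of replicate 3), and by 1.34 in untreated cells (difference -1.07, -1.43 to -0.71, adjusted p = 0.00213). CLEC2A, a C-type lectin, had 10.14, 10.12 and 9.93 at 72 h and 10.14, 10.05 and 10.25 at 24 h with Pu27. These arrays overlapped (-0.08, adjusted p = 0.533), against a rise of 0.75 in untreated cells (difference -0.84, -1.11 to -0.57, adjusted p = 0.00173). DYNC2LI1, a light intermediate chain of the ciliary dynein, rose by 0.46 with Pu27 and by 1.12 in untreated cells (difference -0.66, adjusted p = 0.0113). That call was lost without Pu27 72 h replicate 1 (adjusted p = 0.0502) or 2 (0.0537), Pu27 24 h replicate 2 (0.0562) or untreated 24 h replicate 1 (0.101), and with only the compared groups in the fit (0.128). It was also lost with the mean of the gene's probe sets, which gave a smaller difference of -0.32 (adjusted p = 0.367). HESX1, a homeobox gene named after its values were seen because it was too dim for the naming rule, rose by 0.86 with Pu27 and by 2.02 in untreated cells (difference -1.16, adjusted p = 0.00173). With Pu9- and Pu5- the changes were 0.48 and 0.49 for LIG4, and 0.09 and -0.02 for CLEC2A. They were 0.68 and 0.57 for DYNC2LI1, and 1.31 and 0.98 for HESX1. For none of the 4 genes did the difference of Pu27 from Pu9- or Pu5- pass with no block.

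Against Pu9-, the shorter oligonucleotide, 3 genes passed, all with the higher change with Pu27 (0.0165%, and 1739 genes at an unadjusted p under 0.05). Besides HLA-DRA they were the succinate receptor SUCNR1, which had 10.41, 10.48 and 10.31 at 72 h and 10.44, 10.03 and 9.86 at 24 h with Pu27, against 9.09, 8.81 and 8.96 at 72 h and 10.26, 9.88 and 9.80 at 24 h with Pu9-. The Pu27 arrays of SUCNR1 overlapped between the times (0.29, adjusted p = 0.134, and 0.0214 without Pu27 24 h replicate 1), while its change with Pu9- was -1.03 (difference 1.32, 0.89 to 1.74, adjusted p = 0.00705). LSM4, a subunit of the Sm-like ring on U6 RNA, changed by -0.22 with Pu27 (adjusted p = 0.0187, lost without Pu27 72 h replicate 2 or Pu27 24 h replicate 1 or 2) and -0.80 with Pu9- (difference 0.58, 0.37 to 0.79, adjusted p = 0.0209). The call of LSM4 was lost without Pu27 72 h replicate 1, Pu27 24 h replicate 3 or replicate 2 or 3 of either Pu9- group (adjusted p = 0.0571 to 0.13). That of HLA-DRA was lost without Pu27 72 h or 24 h replicate 1 or replicate 3 of either Pu9- group (0.0665 to 0.0893). With only the compared groups in the fit none of the 3 passed (adjusted p = 0.109 for HLA-DRA and SUCNR1 and 0.55 for LSM4). The count against Pu9- was 34 without Pu27 72 h replicate 3, 57 without Pu9- 72 h replicate 1, 5 without Pu9- 24 h replicate 1, and 1 without Pu27 72 h replicate 1, Pu9- 72 h replicate 3 or Pu9- 24 h replicate 3. Against Pu5-, the longer oligonucleotide, no gene passed with limma (0%, 794 genes at an unadjusted p under 0.05), and 3 passed without Pu5- 72 h replicate 2. Of the 39 G2/M genes 38 had a higher change with Pu27 than with Pu5-, with a median difference of 0.42, against 0.01 over all genes. With the replicate number as a block 7 of the 39 passed, all higher with Pu27, and with the block within each time 14 did. Against untreated cells and Pu9- the median differences of these 39 genes were 0.09 and 0.07. There 0 and 0 passed with the replicate block, and 4 and 0 with the block within each time. KIF2C, a microtubule depolymerase, had the time change 0.51 higher with Pu27 than with Pu5- (adjusted p = 0.0941 with no block and 0.00963 with the replicate block).

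**Figure D5:**
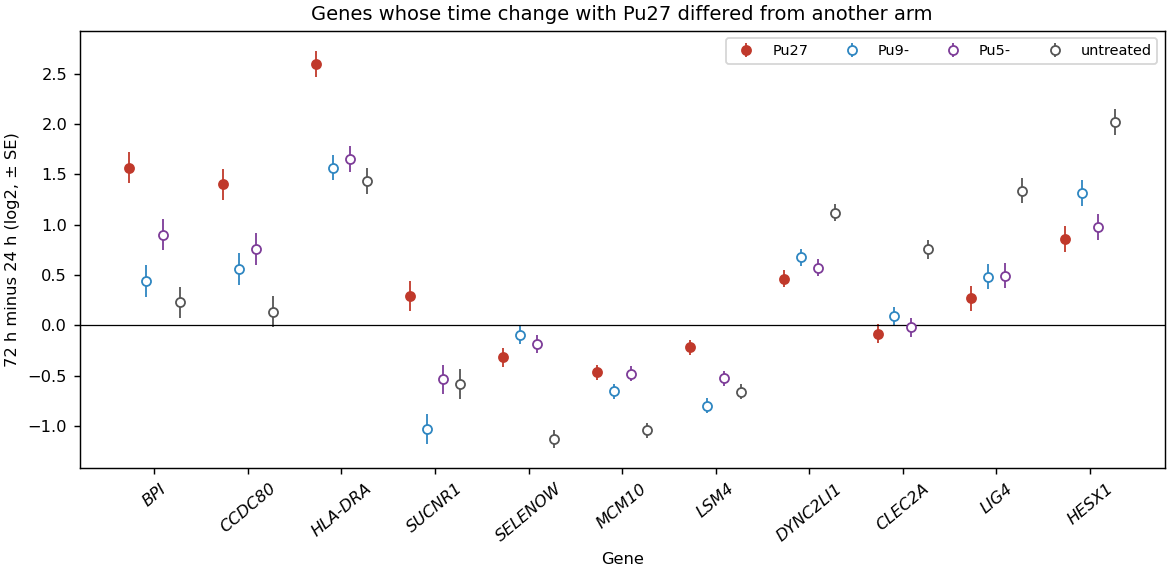
Log2 change from 24 h to 72 h (vertical axis, with SE) in the 4 arms for the 11 genes whose change with Pu27 differed from that in untreated or Pu9- treated cells, ordered by the difference from untreated cells. Pu27 is filled red. For HLA-DRA the Pu27 value of 2.60 stands above the other 3 arms, and for SELENOW, CLEC2A and LIG4 the untreated value stands apart from all 3 oligonucleotides.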

How the data were processed

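RNA of 39 U937 samples (100 ng each) was measured on Affymetrix 3' arrays. The deposited values are log2 units made with RMA, per the submitters' processing notes, which also name limma; no version is recorded in the labels. RMA makes the arrays' distributions alike, so a change in total RNA per cell is not measured, and it compresses dim probe sets. Of 49293 probe sets after controls, 44988 had 1 gene symbol in GEO's platform table; a gene (18132 in all) was represented by its brightest probe set over the 39 arrays. Arrays give no read depth; their number limits precision.

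The model, in limma 3.58.1 (R 4.3.3), had 1 mean per group (13 groups, 39 arrays), default empirical Bayes prior, Benjamini-Hochberg adjustment over all genes, threshold 0.05. The difference between arms was the interaction contrast. The fit was tested on simulated data. Named were MYC and the 15 largest called rises and falls with no overlap and a mean of at least 6 in the higher group. Also named were called differences between arms with a mean of at least 6 in the highest group, and each list's 4 most changed members. LOC, LINC, antisense and open reading frame symbols were passed over in the ranked parts. CCL5, CD68, TYROBP, TTK, EEF1G, EEF2, IER3, NFKB1, CDC6, KIF2C, FBL, NOP2, HESX1, SPRY4 and markers were named after their values were seen. Members and lists were chosen with earlier results of these data known. Promoter sequences are RefSeq's (GRCh38.p14), matched by symbol. Alternatives covered probe set choice, dim genes, scaling, an ACTB covariate, the prior, the groups fitted, a replicate block and leaving out arrays. Same-numbered Pu27 and untreated arrays of each time deviated together in every pair (correlations over 0.1), but Pu27 72 h and 24 h arrays did not; the block is therefore given beside the differences between arms.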

Additional observations from a re-analysis of the deposited data

Results flagged for a closer look

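The genes below were singled out because a test of the difference itself, with no replicate block, found another 24 h to 72 h change in Pu27-treated cells than in a second arm. Values are log2 differences, the Pu27 change minus the other. Against untreated cells the difference was 1.34 for BPI, 1.26 for CCDC80, 1.16 for HLA-DRA, 0.81 for SELENOW and 0.58 for MCM10. It was -0.66 for DYNC2LI1, -0.84 for CLEC2A, -1.07 for LIG4 and -1.16 for HESX1, whose mean stayed below 6 in all 4 groups. Against Pu9- treated cells it was 1.32 for SUCNR1, 1.03 for HLA-DRA and 0.58 for LSM4. HLA-DRA was the gene in both sets. The groups had 3 arrays each, too few for a test of outlying arrays.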

How the results depend on the processing

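The counts of genes changed between 72 h and 24 h in the 4 arms stayed within 1.5 times of the values given under all alternatives run. Leaving out arrays, the count was 2253 to 3725 for Pu27 48 h against 24 h and 1664 to 3154 for 72 h against 48 h. The change of MYC was -0.52 to -0.24, and it did not pass without Pu27 24 h replicate 3 (-0.27), replicate 2 (-0.31) or replicate 3 (-0.24). Counts of genes with another time change moved most. Leaving out arrays they were 0 to 70 against untreated cells, 0 to 77 against Pu9- and 0 to 3 against Pu5-. Against untreated cells the count of 9 became 32 with the mean of all probe sets, 31 with dim genes left out (12599 genes tested) and 28 with a trended, robust prior. Against Pu9- the count of 3 became 0 with the compared groups alone, 13 with the mean of probe sets, 7 without dim genes, 1 with a common array median and 6 with the ACTB covariate. Against Pu5- the count of 0 became 5 without dim genes and 7 with the trended prior. The cause was not tested. Same-numbered Pu27 72 h and 24 h arrays had correlations of -0.03 to 0.18 in their deviations from group means, and 2 of 3 correlated best with their own number, so the numbers were not taken as pairs within Pu27, where the block gave 7015 changed genes. Same-numbered arrays of Pu27 and untreated cells did deviate together at each time. With the replicate block the counts of another time change were 88, 34 and 21 against untreated, Pu9- and Pu5- cells, and with the block within each time, chosen after seeing the data, 422, 125 and 65. Of 191 called named genes besides MYC, 178 were called under all alternatives run and 13 were lost under at least 1, among them RPL5, RPL13, RPL38, BAX and HMOX1. SLC30A1 (0.50) reversed to -0.10 with the mean of probe sets. Probe sets near background, where RMA compresses change, limit what dim genes show.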

Other observations

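Several gene groups with Pu27 moved in mixed directions between 24 h and 72 h, when 19.7% of all genes rose and 16.8% fell. Of 30 measured type I interferon response genes 11 rose and 5 fell, with a median of 0.13: XAF1 rose by 0.98 (± 0.16) and the ubiquitin-like ligase HERC5 by 0.90 (± 0.12), while IFIT2 fell by 1.14 (± 0.15), a call that rests on its brightest probe set. The DNA sensor AIM2 fell by 1.90 (± 0.26), and of 16 nucleic acid sensing genes 4 rose and 3 fell. Among 16 DNA repair and checkpoint genes 6 rose and 5 fell: the kinase ATM rose by 1.31 (± 0.11), whereas the kinase ATR fell by 1.03 (± 0.10) and the uracil glycosylase UNG by 1.34 (± 0.16).

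Of 27 autophagy and lysosome genes 8 rose and 8 fell, WIPI1, which marks forming autophagosomes, rising 2.83-fold and ATG5 falling by 0.83 (± 0.09). Of 19 oxidative phosphorylation genes 6 rose and 1 fell, led by UQCRC2 of complex III (0.94 ± 0.08). With arrays centred on a common median 4 rose and 3 fell. Among 20 replication-linked histone genes 4 rose and 6 fell, and the H2B gene H2BC12 rose by 1.42 (± 0.17) by its brighter probe set, with none of the rise present at 48 h. The TSC22D3 and BBC3 rises, 3.60 and 2.16 with Pu27, were 3.55 and 1.97 in untreated cells.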
